A study of Mus musculus with 8 samples.

Results

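Genes of MHC class II antigen presentation were followed in mouse liver on 8 Agilent 2-colour arrays. The set held 10 genes: the class II chains H2-Aa, H2-Ab1 and H2-Eb1, the invariant chain Cd74, the protease Ctss, the peptide-loading chains H2-DMa, H2-DMb1 and H2-Oa, the transactivator Ciita and the surface protein Cd83. Members were found by the gene symbol that the array annotation gives to each feature, and 24 features carried one of the 10 symbols. All 10 genes had a ratio on all 8 arrays, among 15346 genes that did so of 19087 named on the array.

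The mice were of the C3H/HeN strain and 8 weeks old, and 2 arrays were labelled for each of 4 groups. Female and male mice given IL1-beta received 25 µg/kg of recombinant murine IL1-beta into the peritoneum every other day for 2 weeks, and the male and female controls received vehicle on that schedule. The tissue was collected 1 h after the last injection, and the labels name no mutant allele or transgene. Per the labels, the liver RNA carried Cy5 and a universal mouse reference RNA, pooled from 11 mouse cell lines, carried Cy3 on every array. The replicates are labelled only as biological replicates, so a p-value reflects how far the 2 arrays of a group lay apart, which may be technical. That spread was estimated in 1 fit over all 4 groups, so the control arrays also enter the p-values of the IL1-beta arrays.

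MHC class II molecules are pairs of an alpha and a beta chain that carry peptides to the surface of antigen-presenting cells, where CD4 T cells read them. The chains assemble with the invariant chain, which cathepsin S trims in the endosome, and the DM molecule then swaps the remaining fragment for a peptide while the DO molecule holds DM back. The promoters of these genes share an X box and a Y box, which RFX, CREB and NF-Y bind and on which the transactivator CIITA, inducible by interferon gamma, is assembled. In liver, Kupffer cells, dendritic cells, B cells and sinusoidal endothelium carry class II, whereas resting hepatocytes carry little. Each value here comes from whole liver RNA, in which fewer cells of a type and less RNA per cell cannot be told apart.

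The stretch from 110 to 31 bases before the start site is printed for 4 members, because it holds the Y box that these genes share. The sequences are those of RefSeq on GRCm38.p6, the genome of C57BL/6J mice, whose class II haplotype differs from that of C3H mice. Capitals mark the Y box core, ATTGG, and the X box core, ACNGATG, on either strand.
H2-Eb1, chr17:34305757-34305836, plus strand: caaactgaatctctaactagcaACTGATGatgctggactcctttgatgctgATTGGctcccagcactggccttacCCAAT
H2-DMb1, chr17:34153081-34153160, plus strand: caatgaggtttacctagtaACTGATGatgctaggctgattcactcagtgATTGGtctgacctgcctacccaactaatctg
H2-Aa, chr17:34287854-34287933, minus strand: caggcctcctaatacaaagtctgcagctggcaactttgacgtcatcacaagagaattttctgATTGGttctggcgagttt
H2-Oa, chr17:34092269-34092348, plus strand: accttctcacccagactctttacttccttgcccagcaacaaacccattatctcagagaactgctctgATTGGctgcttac

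The X box core began 29 bases before the Y box core in H2-Eb1 and 30 bases before it in H2-DMb1. The printed stretches of H2-Oa and H2-Aa held no exact match to the X box core. The exact match in H2-Oa lay 94 bases before the Y box core, upstream of the printed stretch. In H2-Aa the exact match lay on the other strand with its first base at -232. X boxes with other letters were not searched for, so these matches do not place the X box of H2-Oa or H2-Aa. Promoter windows of 300 bases were used for 6 members, which had 7 windows, and both strands were searched. Member windows on chromosome 18, where Cd74 lies, were left out of these counts. The Y box core was present for 5 of the 6 genes and in 37.4% of all 32851 windows, and the longer Y box CTGATTGG, which contains the core, was present for 3 of the 6 and in 4.1% of all windows. The X box core was present for 5 of the 6 genes and in 9.85% of all windows. A match is a description of letters and not of binding.

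Before the members are described, the arrays need a word, because the 4 control arrays were unlike the 4 IL1-beta arrays. On the IL1-beta arrays Xist, the RNA of the inactive X chromosome, had log2 ratios of 2.11 and 1.52 in females and of -4.32 and -4.36 in males. On the control arrays it had 5.40 and 5.78 on the arrays labelled male and -4.94 and -4.57 on those labelled female. Eif2s3y, a gene of the Y chromosome, had -9.17 and -10.56 on the arrays labelled male control and 10.03 and 10.80 on those labelled female control, so both genes went against those labels. A list of 10 hepatocyte markers, 7 of them measured, had medians of 6.05 to 6.58 on the IL1-beta arrays and of -0.29 to 0.16 on the control arrays. Over all genes, the arrays labelled male control and female control had correlations of -0.722 to -0.478, although the labels give them 1 dye orientation. The IL1-beta arrays were therefore read as liver over pool and the control arrays as a mirrored contrast between the sexes, whose direction the labels do not settle. Read so, a positive control contrast has the sign of Xist and a negative one that of Eif2s3y. The control contrast is given as labelled male control minus labelled female control, halved because mirrored arrays would each carry the whole contrast, and also as labelled. No difference between IL1-beta and control mice was taken.

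Ciita, the transactivator, was above the pool under IL1-beta. Its log2 ratios were 2.04 and 1.16 in females and 0.23 and 1.32 in males, and the sexes overlapped. Its mean over the 4 IL1-beta arrays was 1.19 ± 0.23 (SE), 2.28-fold the pool (limma, adjusted p = 0.00248). After quantile normalization it was 0.79 and did not pass (adjusted p = 0.0601). The female minus male difference was 0.83 with a 95% interval of -0.28 to 1.94, and 0.28 to 1.38 with an IL1-beta array left out. Among controls, Ciita had 0.23 and -0.06 where labelled male and -0.31 and 0.45 where labelled female. These values overlapped, and the halved difference was 0.01 with an interval of -0.54 to 0.56.

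The 3 class II chains stood well above the pool. H2-Aa, the alpha chain of the A molecule, had log2 ratios of 4.37 and 4.53 in IL1-beta females and 3.74 and 3.79 in IL1-beta males. H2-Ab1, its beta chain, had 3.37 and 3.15 in females and 2.29 and 2.21 in males. H2-Eb1, the beta chain of the E molecule, had 2.80 and 2.40 in females and 2.06 and 2.11 in males. For each of the 3 chains both females were above both males. Over the 4 IL1-beta arrays they averaged 17.2-fold, 6.75-fold and 5.06-fold the pool, in that order (limma, adjusted p = 1.58e-07, 2.67e-07 and 1.69e-06). By the size of the ratio they held ranks 811, 1420 and 1700 of 15346 genes, which orders ratios to the pool and not transcript levels. H2-Ea, which pairs with H2-Eb1, had 1 feature with no measurement on 3 of the control arrays and was not tested. Its log2 ratios were 3.28 and 2.52 in IL1-beta females and 2.48 and 0.77 in IL1-beta males, so both females were above both males here too.

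None of the 3 chains passed the test between the sexes under IL1-beta. The female over male ratio of H2-Ab1 was 2.01, a log2 difference of 1.01 ± 0.19 (SE) with an interval of 0.57 to 1.45 (limma, adjusted p = 0.160, unadjusted p = 0.00106). The difference for H2-Aa was 0.69 (0.09 to 1.28) and that for H2-Eb1 was 0.52 (-0.03 to 1.07). Adjusted p was 0.499 for H2-Aa and 0.633 for H2-Eb1.

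H2-Ab1 was read by 13 features, of which 12 had a ratio on every array. Between them the 12 features gave females 2.27 to 3.92 on array 1 and 2.58 to 3.65 on array 2, against 2.04 to 2.79 and 1.21 to 3.08 in males. One of the 12 was the lowest on every IL1-beta array, with 2.27 and 2.58 in females and 2.04 and 1.21 in males. In each of the 12 both females were above both males, by 0.80 to 1.20 in the mean. Features of 1 gene measure the same RNA and are not replicates. The annotation gives all 12 the same transcript record and no probe sequences, so they may include copies of 1 probe. The feature left out was annotated to another transcript record and had no measurement on the array labelled female control 2. It read -1.14 and -0.37 in IL1-beta females and -0.22 and -0.95 in IL1-beta males, well below the 12 others. The 2 features of H2-Aa did not agree on the sexes. One had 4.88 and 5.35 in females and 4.98 and 4.78 in males, which overlapped. The other had 3.85 and 3.72 in females and 2.50 and 2.79 in males, which did not, and its difference was 1.14 against 0.23 for the first. The labels do not give the strain on which the features were designed, and the part of sequence differences between haplotypes in such readings was not tested.

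**Figure D1:**
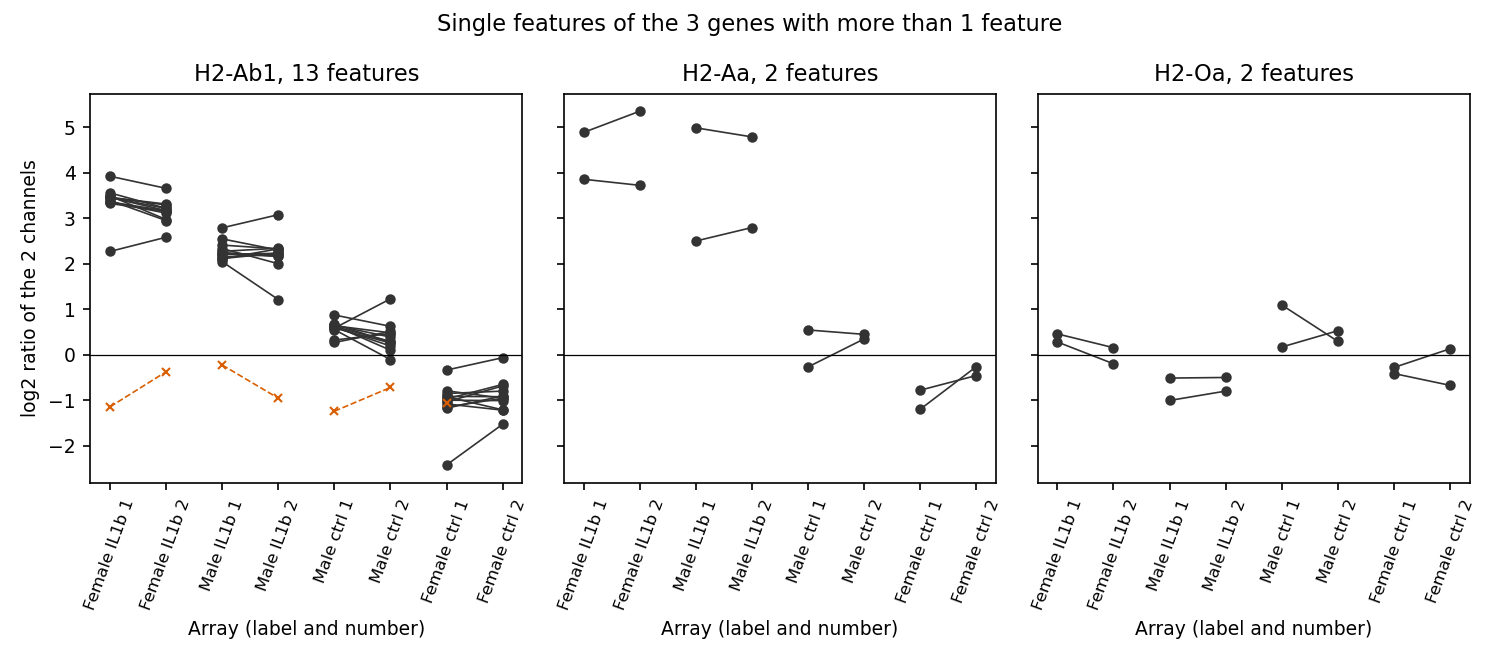
Log2 ratio (vertical axis) of each feature of H2-Aa, H2-Ab1 and H2-Oa, the members with over 1 feature, on each of the 8 arrays (horizontal axis). Female and male IL1-beta arrays come first and the arrays labelled male and female control after them. The H2-Ab1 feature left out of the gene mean is dashed with crosses, and it reads below the 12 used ones on each IL1-beta array. Of those 12, 1 reads below the rest on each IL1-beta array, and the features of H2-Aa lie apart.

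The chains split on the control arrays. H2-Aa had 0.14 and 0.40 on the arrays labelled male control and -0.99 and -0.36 on those labelled female control. H2-Ab1 had 0.58 and 0.39 where labelled male control and -1.05 and -0.91 where labelled female control. H2-Eb1 ran the other way, with -0.86 and -0.99 on the arrays labelled male control and 0.85 and 1.28 on those labelled female control. As gene means, none of the 3 overlapped between the groups. The halved difference was 0.47 ± 0.12 for H2-Aa, 0.73 ± 0.09 for H2-Ab1 and -0.99 ± 0.12 for H2-Eb1 (SE; limma, adjusted p = 0.0395, 0.00335 and 0.00244). As labelled and not halved, female minus male control was -0.94, -1.47 and 1.99 for the 3 genes. All 12 features of H2-Ab1 were on the side of the gene mean, at 0.47 to 1.44, while H2-Eb1 rests on 1 feature. One of the H2-Aa features overlapped between the control groups, with -0.27 and 0.35 where labelled male and -1.20 and -0.26 where labelled female.

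Cd74, the invariant chain, was near the pool under IL1-beta. It had log2 ratios of 0.40 and 0.00 in IL1-beta females and -0.48 and -0.55 in IL1-beta males, with no overlap. The mean over the 4 arrays was -0.15 ± 0.10 (SE; limma, adjusted p = 0.193), and the female minus male difference was 0.71 (0.24 to 1.19, adjusted p = 0.361). In the control groups it had 0.66 and 0.57 where labelled male and -0.28 and -0.39 where labelled female, again with no overlap. The halved difference was 0.48 ± 0.10 (SE; limma, adjusted p = 0.0187), or -0.95 as labelled.

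Ctss, cathepsin S, which cuts the invariant chain down, was below the pool on every IL1-beta array. It had -1.20 and -0.55 in IL1-beta females and -1.33 and -1.87 in IL1-beta males, both females being above both males. Its mean was 2.36-fold lower than the pool (limma, adjusted p = 0.000148), and the sexes differed by 0.72 (0.05 to 1.40, adjusted p = 0.562). Controls gave Ctss log2 ratios of 1.60 and 1.44 where labelled male and -0.61 and -0.79 where labelled female. That was the widest gap of the 10 members on the deposited scale, H2-Eb1 being wider after quantile normalization (-2.58, against 2.29 for Ctss), with a halved difference of 1.11 ± 0.14 (SE; limma, adjusted p = 0.00349) and -2.22 as labelled.

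The DM and DO chains, which load and guard the peptide groove, lay close to the pool. H2-DMa, the alpha chain of DM, had -0.72 and -0.21 in IL1-beta females and -0.75 and -1.45 in IL1-beta males. H2-DMb1, a beta chain of DM, had 1.24 and 0.73 in females and 0.22 and 0.17 in males. H2-Oa, the alpha chain of DO, had 0.37 and -0.02 in females and -0.76 and -0.65 in males. Both females exceeded both males for each of these genes, by 0.64 (-0.19 to 1.47) for H2-DMa, 0.79 (0.23 to 1.35) for H2-DMb1 and 0.88 (0.39 to 1.37) for H2-Oa, and adjusted p was 0.284 or more (limma). Over the 4 arrays H2-DMb1 was 1.51-fold higher and H2-DMa 1.72-fold lower than the pool (limma, adjusted p = 0.00268 and 0.00471). Neither passed after quantile normalization, with adjusted p of 0.0827 for H2-DMb1 and 0.142 for H2-DMa. H2-Oa passed at -0.26 (limma, adjusted p = 0.0485) with arrays on both sides of the pool, and passed under only 5 of 19 other settings, with adjusted p of 0.0257 to 0.583.

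Of the DM and DO chains on the control arrays, H2-DMa had 0.92 and 0.23 where labelled male and -0.93 and -0.62 where labelled female. H2-Oa had 0.63 and 0.41 where labelled male and -0.35 and -0.27 where labelled female. H2-DMb1 had 0.43 and 0.40 where labelled male and 0.18 and 0.55 where labelled female. H2-DMa and H2-Oa did not overlap between the groups and H2-DMb1 did. The halved difference was 0.68 ± 0.18 for H2-DMa and 0.41 ± 0.10 for H2-Oa (SE; limma, adjusted p = 0.0363 and 0.0319), and 0.02 (-0.26 to 0.30) for H2-DMb1. As labelled these were -1.35, -0.83 and -0.05. H2-DMb1 has a near-identical neighbour, H2-DMb2, from which its feature may draw signal. H2-DMb2 had -0.52 and -0.53 in IL1-beta females, -1.08 and -1.14 in IL1-beta males, 0.52 and 0.52 on the arrays labelled male control and -0.82 and -0.70 on those labelled female control. Its halved control difference of 0.64 ± 0.08 passed (SE; limma, adjusted p = 0.00365), so the features of the neighbours gave unlike readings on the control arrays.

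Cd83, a surface protein of mature dendritic cells and activated lymphocytes that is known to keep class II at the surface, had the highest ratio of the members. It had 6.28 and 6.78 in IL1-beta females and 6.44 and 6.18 in IL1-beta males, and the sexes overlapped. Its mean was 85.6-fold the pool (limma, adjusted p = 5.76e-08), rank 191 of 15346, and the female minus male difference was 0.22 (-0.54 to 0.97). Among controls it had 1.28 and 0.64 where labelled male and -0.98 and -0.44 where labelled female, with no overlap. The halved difference was 0.83 ± 0.16 (SE; limma, adjusted p = 0.0134), or -1.67 as labelled.

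**Figure D2:**
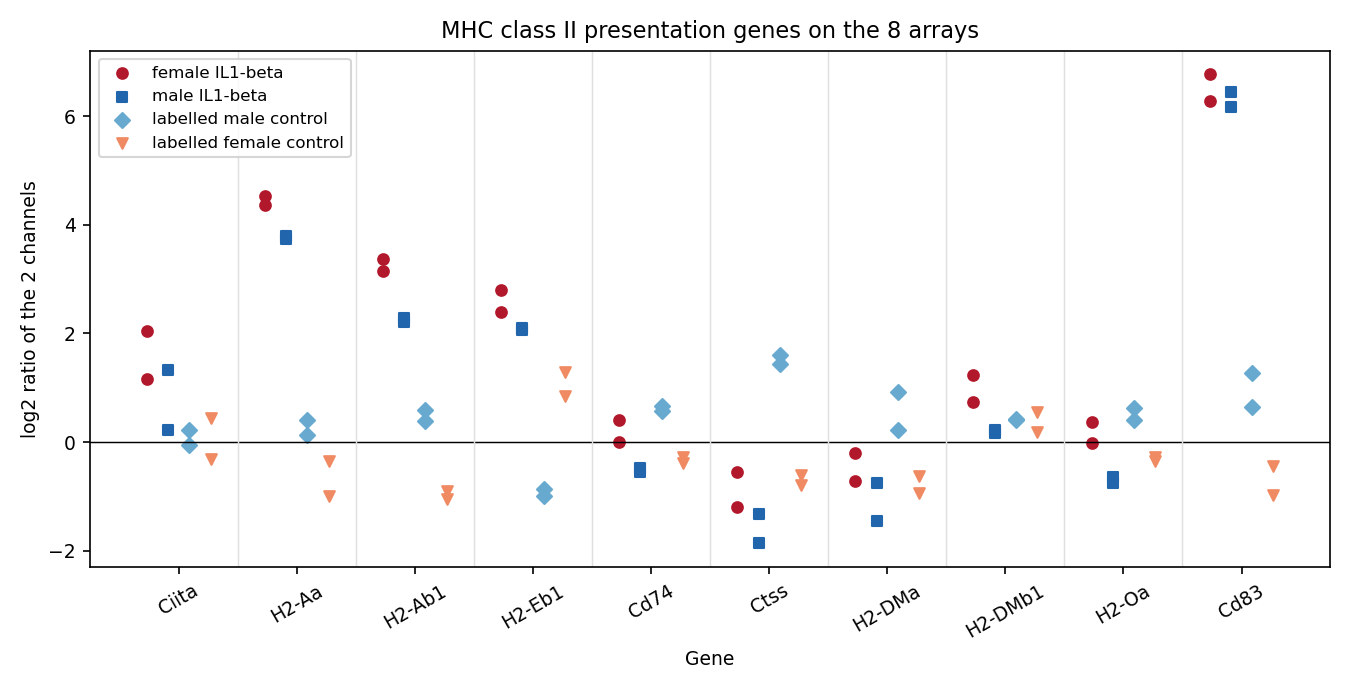
Log2 ratio (vertical axis) of each of the 10 genes on each array, 1 point per array, with the groups in the order female IL1-beta, male IL1-beta, labelled male control and labelled female control. Cd83 and H2-Aa stand highest on the IL1-beta arrays, and H2-Eb1 alone of the 10 is lower on both arrays labelled male control than on both labelled female control.

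Against the pool, 9 of the 10 members passed under IL1-beta, 6 higher and 3 lower, in a comparison in which 78.5% of all genes passed, 36.2% higher and 42.3% lower. An unadjusted p under 0.05 was found for 9 members and 79.9% of all genes. The median ratio of the members was 0.89, against -0.11 over all genes. For 6 members all 4 IL1-beta arrays were above the pool and for 2 members, H2-DMa and Ctss, all 4 were below it, where 37.5% and 43.9% of all genes did the same. The pool is 1 RNA, so its own spread is left out of this test, and a share that large over all genes says little about the members.

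Between the sexes under IL1-beta, 0 of the 10 members passed by limma, where 0.163% of all genes did, or 25 genes, 0.104% higher and 0.0586% lower in females. All 10 differences were positive, which means higher in females, with a median of 0.72 against -0.01 over all genes. Both females exceeded both males for 8 members, where 18% of all genes did so and 18.8% had both males above both females. At an unadjusted p under 0.05 there were 6 members, where 8.28% of all genes had such a p. Ciita and Cd83 were the members whose sexes overlapped. Cd83 turned to -0.033 without the second female array, and the other 9 kept their direction under all 20 settings tried for them. Leaving out an IL1-beta array moved H2-DMa between 0.29 and 0.99, Ctss between 0.40 and 1.04 and H2-Eb1 between 0.31 and 0.72.

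In the control contrast 8 of the 10 members passed, 7 higher and 1 lower where labelled male, against 21.4% of all genes, 12.1% higher and 9.3% lower. An unadjusted p under 0.05 was found for 8 members and 36.7% of all genes. The median halved difference was 0.47, against -0.02 over all genes. The same 8 had arrays that did not overlap, which was so for 32.2% of all genes on the higher side and 35.3% on the lower side. The count rests on the full set of arrays: 3 members and 9.88% of all genes passed without labelled male control 1, and 5 members and 13.5% without labelled male control 2. Without labelled female control 1 there were 3 members and 13.1%, and without labelled female control 2 there were 5 members and 11.3%. H2-Ab1, H2-Eb1 and Ctss passed each time. Of 21 other settings, Ctss passed under 21, H2-Ab1 and H2-Eb1 under 20, Cd83 under 18, Cd74 under 16, H2-DMa under 14 and H2-Aa and H2-Oa under 11. Control arrays of the same number had correlations of -0.722 and -0.592, and those of different number -0.519 and -0.478. Whether same-numbered control arrays hold the same RNA could not be settled from the labels, and if they do, the 4 arrays are not separate samples. When they were reduced to the means of same-numbered pairs, Ctss alone of the members passed (limma, adjusted p = 0.0483), with 2.37% of all genes. The pairs gave Ctss 1.11 and 1.11, H2-Ab1 0.82 and 0.65, and H2-Eb1 -0.85 and -1.14, while those of Ciita, at 0.27 and -0.25, and of H2-DMb1, at 0.13 and -0.08, had opposite signs.

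The female minus male difference under IL1-beta was set against the halved control contrast by testing the difference between them. By limma 0 of the 10 members passed, 2 had an unadjusted p under 0.05, and 0.209% of all genes passed, 0.0261% higher and 0.182% lower, with 10.3% having such an unadjusted p. H2-Eb1 had the widest difference, 1.51 with an interval of 0.90 to 2.13 (limma, adjusted p = 0.110), as females exceeded males under IL1-beta while its control contrast had the opposite sign. H2-DMb1 had 0.77 (0.14 to 1.39, adjusted p = 0.400), and the other 8 members lay between -0.62 for Cd83 and 0.82 for Ciita. Quantile normalization made H2-Eb1 pass at 2.89 (limma, adjusted p = 0.0172) and Ctss at -1.82 (adjusted p = 0.0279), while 4.09% of all genes passed. That setting gives all arrays 1 distribution of values, although the IL1-beta and control arrays were read as unlike contrasts. Under it H2-Eb1 had 0.32 between the IL1-beta sexes and -2.58 in the control contrast, against 0.52 and -0.99 without it. Taken as labelled, 8 members passed, 7 higher and 1 lower, where 14.3% of all genes did, 8.61% higher and 5.65% lower. H2-Eb1 was lower at -1.47, and H2-Aa at 1.63, H2-Ab1 at 2.48, H2-DMa at 1.99, H2-Oa at 1.71, Cd74 at 1.67, Ctss at 2.94 and Cd83 at 1.88 were higher. Every statement on this comparison therefore depends on how the control arrays are read.

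**Figure D3:**
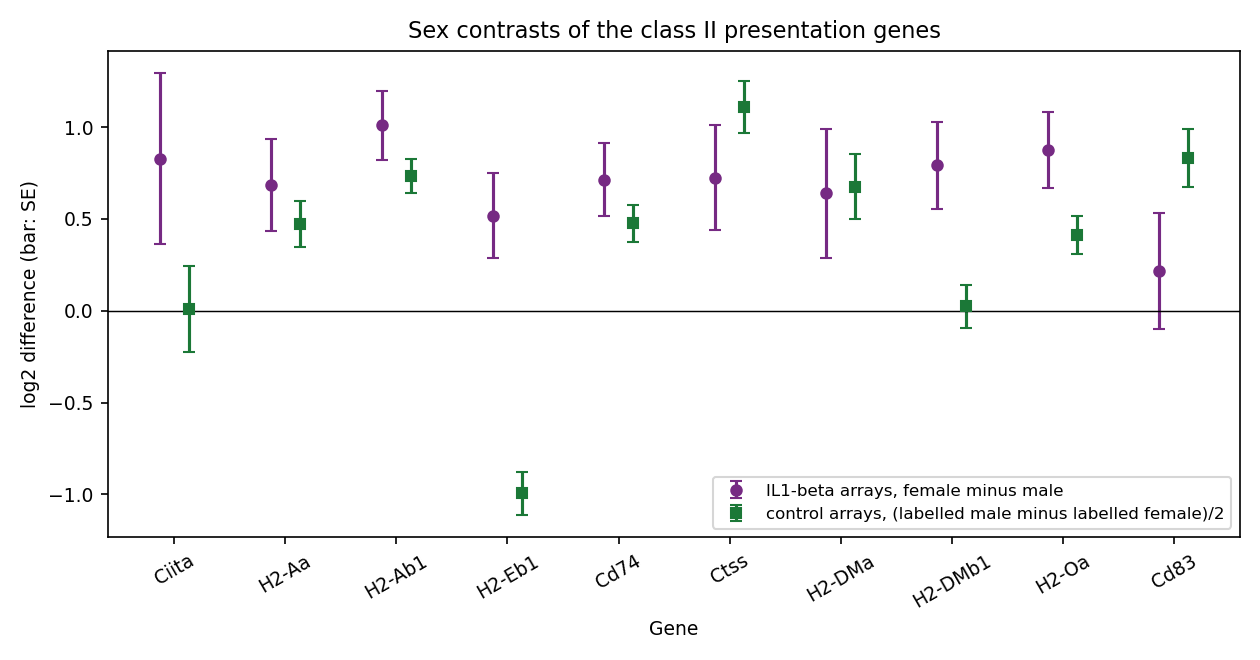
Sex contrasts of the 10 genes on the log2 scale, with the SE as bars: female minus male under IL1-beta, and labelled male control minus labelled female control, halved. All 10 points lie above 0 under IL1-beta, whereas H2-Eb1 lies at -0.99 on the control arrays.

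Beside the members, the class II pathway holds regulators, proteases and ligases. Of 21 further genes of the pathway, 17 were measured on all arrays, and 0 passed between the sexes under IL1-beta, with 13 positive and a median of 0.16. The smallest p among them were those of H2-DMb2 at 0.58, of Marchf1 at -0.56 and of Ctsb, cathepsin B, at 0.42, with adjusted p of 0.369 to 0.763 (limma). In the control contrast 4 were higher where labelled male and 1, Marchf8, was lower. Those higher included H2-DMb2, Ctsb at 0.66 and Marchf1 at 0.54 (limma, adjusted p = 0.00365, 0.0104 and 0.0377). Against the pool 4 were higher and 8 lower under IL1-beta, with a median of -0.24. Marchf1, the ubiquitin ligase that draws class II and CD86 off the surface, had 5.35 ± 0.14 (SE), while Rfxap, a subunit of RFX, had -1.04 and Ifi30, the thiol reductase of the endosome, had -1.43 (limma, adjusted p = 8.15e-08, 4.59e-05 and 5.15e-05).

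Ifng, which encodes interferon gamma, the inducer of Ciita, passed between the sexes under IL1-beta. It had log2 ratios of 2.42 and 2.53 in females and 0.23 and 0.46 in males, a difference of 2.12 ± 0.20 (SE; limma, adjusted p = 0.0112). It was the only one of 13 measured genes of the interferon gamma axis to pass there, and 8 of the 13 were positive with a median of 0.13. Next by p were Socs1, an inhibitor of cytokine signalling, at -0.97 and Ifngr1, a receptor chain, at 0.44 (limma, adjusted p = 0.367 and 0.583). Among controls, Ifng had 0.72 and 0.55 where labelled male and -0.76 and -0.51 where labelled female, a halved difference of 0.64 ± 0.10 (SE; limma, adjusted p = 0.00642). There 7 of the 13 were higher and 0 lower, among them Gbp2 at 1.25 and Cxcl9 at 0.80. The class I pathway had 17 measured genes, of which 0 passed under IL1-beta, with 11 positive and a median of 0.17, and 2, Tap1 and H2-T23, were higher on the control arrays.

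Markers of several cell types, among them cells that carry class II, were set beside these results. Under IL1-beta 0 measured markers of any of 9 cell type lists passed between the sexes. The monocyte and myeloid list had 10 of 10 positive with a median of 0.49, the B cell list 7 of 9 with 0.40, the T cell list 6 of 8 with 0.46, the dendritic cell list 7 of 9 with 0.21 and the sinusoidal endothelium list 7 of 8 with 0.40. The stellate cell list had 7 of 8 positive with a median of 0.23, the adipocyte list 3 of 5 with 0.27 and the hepatocyte list 0 of 7 with -0.26. Of the Kupffer cell list 4 of 10 were positive, with a median of -0.08. The dendritic cell list had a median ratio of 0.45 and 0.42 in IL1-beta females and 0.52 and 0.26 in IL1-beta males, and the B cell list had 0.55 and 0.45 in females and 0.44 and 0.47 in males. The monocyte and myeloid list had 0.62 and 1.48 in females and 0.85 and 0.49 in males, and the T cell list had 1.41 and 1.35 in females and 1.03 and 1.03 in males. The endothelial list had 3.03 and 3.77 in females and 3.14 and 2.50 in males, and the Kupffer cell list had 5.40 and 5.91 in females and 5.80 and 5.53 in males. The stellate cell list had -1.58 and -1.55 in females and -1.79 and -2.03 in males, the adipocyte list 1.27 and 1.02 in females and 0.77 and 0.76 in males, and the hepatocyte list 6.05 and 6.28 in females and 6.31 and 6.58 in males. The medians of the T cell, stellate cell and adipocyte lists were higher in both females than in both males, that of the hepatocyte list was lower, and the other 5 lists overlapped. Among the markers not measured on every array were Irf4, Cd209a and Siglech of the dendritic cell list and Csf1r and Cd68 of the Kupffer cell list. The markers with the smallest p in 3 of the lists were Ccr2, a receptor of inflammatory monocytes, at 1.49, Clec9a of dendritic cells at 1.54 and Cr2 of B cells at 1.06. Their adjusted p was 0.343 to 0.499 (limma). Other markers of the dendritic cell and B cell lists were lower in females. The part of these cells in the sex difference of the members was not tested.

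In the control contrast every cell type list had markers that passed in the direction of the 7 members higher where labelled male. Of all genes 12.1% passed in that direction. Of the Kupffer cell list 7 of 10 passed, all higher where labelled male, with a median of 0.84 and 0.62 on the arrays labelled male control and -0.98 and -0.70 on those labelled female control. Of the monocyte and myeloid list 7 of 10 were higher and 0 lower, with medians of 0.81 and 0.89 where labelled male and -0.74 and -0.51 where labelled female. Of the B cell list 4 of 9 were higher and 0 lower, with medians of 0.97 and 0.36 where labelled male and -0.81 and -0.29 where labelled female. None of these 3 lists overlapped between the control groups in its median. The same held for the T cell, endothelial, stellate cell, adipocyte and hepatocyte lists, while the median of the dendritic cell list overlapped. The dendritic cell list had 1 of 9 higher, Clec10a at 1.05, and medians of 0.12 and 0.03 where labelled male and 0.01 and 0.10 where labelled female. The T cell list had 3 higher and 2 lower of 8, the endothelial list 3 higher of 8, the stellate cell list 5 higher of 8 and the hepatocyte list 1 higher of 7. Among single markers, Ly6c2 of inflammatory monocytes stood at 2.25, Cd3g of T cells at 1.47 and Cd5l of Kupffer cells at 0.97 (limma, adjusted p = 0.000469, 0.000256 and 0.00338). Cd3e, 1 of the 2 T cell markers that were lower, went against Cd3g at -0.49 (limma, adjusted p = 0.0204). Of the adipocyte list 5 of 5 were higher, and its median of 0.74 and 4.19 set the arrays labelled male control apart from each other, against -3.10 and -3.28 on those labelled female control. The part of these cells in the control contrast of the members was not tested.

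**Figure D4:**
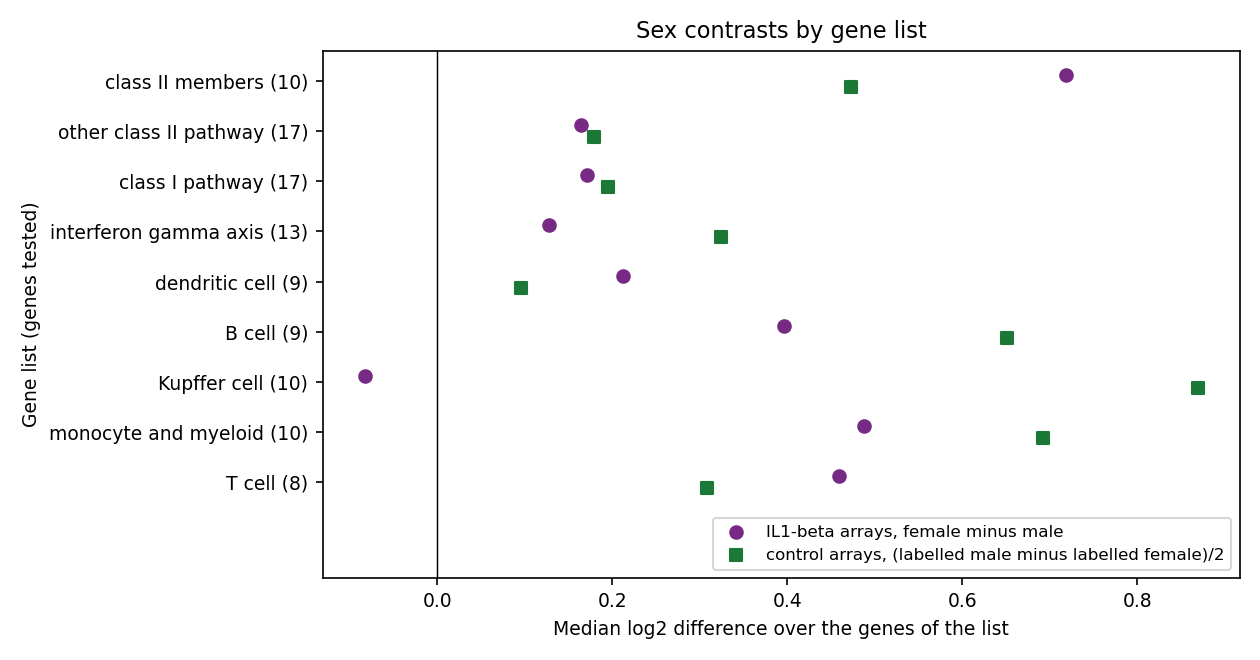
Median log2 difference (horizontal axis) over the measured genes of the members and of further gene lists (vertical axis). Circles give female minus male under IL1-beta, and squares give labelled male control minus labelled female control, halved. The hepatocyte, adipocyte, stellate cell and sinusoidal endothelium lists are not drawn. The Kupffer cell list stands at -0.08 under IL1-beta and at 0.87 on the control arrays, against 0.72 and 0.47 for the members.

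The genes whose profile over the 8 arrays was most like the mean of H2-Aa, H2-Ab1, H2-Eb1 and Cd74 were Galt, Zfp385b, H2-Q4, Vkorc1 and 4930523C07Rik. Their root mean square differences from that mean were 0.225 to 0.245 on the log2 scale, among 15336 genes compared. H2-Ab1 itself differed from the mean by 0.556, H2-Eb1 by 0.838, H2-Aa by 1.33 and Cd74 by 1.73. The 5 genes were picked as the nearest of all those compared, so their being nearer than these members is no result. H2-Q4, a class I heavy chain, had 2.57 and 2.27 in IL1-beta females, 1.94 and 2.20 in IL1-beta males, 0.18 and 0.05 on the arrays labelled male control and -0.45 and -0.58 on those labelled female control.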

How the data were processed

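Liver RNA was measured on 2-colour arrays, 8 in all, with 2 labelled for each of 4 groups. The authors deposited log10 ratios of the 2 channels per feature. The base is not stated and was taken as 10 from the range of the values. The submitters' processing notes name Agilent Feature Extraction. The sources used here do not give its version, nor how background and dyes were corrected. With ratios alone, signal over background was not analysed here, and the number of arrays limits the precision.

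A factor of 3.32 turned the ratios into log2 units, and an exact 0 was taken as no measurement. Of 45018 features, 33653 had 1 gene symbol, 56 several and 11309 none. The 26218 features with 1 symbol and a ratio on all 8 arrays were averaged into 15346 genes. limma 3.58.1 (R 4.3.3) fitted 4 group means to all arrays, with 4 residual and 2.88 prior degrees of freedom, and p-values (two-sided) were adjusted by Benjamini-Hochberg over all 15346 genes at a threshold of 0.05. Intervals cover 95%. The fit was tested on simulated data. Named genes are the members, up to 3 genes with the smallest p in each list and contrast (the 12 lists held 141 genes, of which 121 were measured), and the 5 genes nearest the mean class II profile. Further markers named on the control arrays are among those 3. Members and lists were chosen with earlier results of these data known.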

Additional observations from a re-analysis of the deposited data

How the results depend on the processing

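Alternatives changed the scale, the feature filter, the feature summary, the fit or the arrays used. Among the values of single members, 173 of 190 against the pool, 199 of 200 between the sexes under IL1-beta, 170 of 220 on the control arrays and 171 of 190 for the difference of the contrasts kept direction and side of the threshold. Against the pool, 5 members passed after quantile normalization, against 9, and 8 to 9 with an array left out. On the control arrays, against 8, 5 passed in a fit of the compared groups only, 1 on pair means, and 3 to 7 with an array left out. For the difference of the contrasts, against 0, 2 passed after quantile normalization and 8 as labelled.

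With the replicate number as a block, 8 members and 76.7% of all genes passed against the pool, 0 and 0.117% between the sexes under IL1-beta, 6 and 15.9% on the control arrays, and 0 and 0 genes for the difference of the contrasts. Same-numbered deviations correlated at -0.407 between the IL1-beta groups and -0.430 between the control groups. If the control arrays are mirrored, a negative value is what shared RNA would give there, so pairing of the control arrays is not settled. A crossed pairing, chosen after seeing the data, gave 0 and 8 members and 34 and 3433 genes in those comparisons.

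Directions turned as follows. Under IL1-beta, Cd83 ranged from -0.033, without female replicate 2, to 0.47 over arrays left out. On the control arrays, Ciita was -0.06 without labelled male control 1, in a range of -0.18 (without labelled female control 1) to 0.20, and H2-DMb1 ranged from -0.070 (without labelled female control 1) to 0.12. As labelled they were -0.94 (H2-Aa), -1.47 (H2-Ab1), 1.99 (H2-Eb1), -1.35 (H2-DMa), -0.048 (H2-DMb1), -0.83 (H2-Oa), -0.95 (Cd74), -0.019 (Ciita), -2.22 (Ctss) and -1.67 (Cd83). For the difference of the contrasts, quantile normalization gave -0.44 for H2-Aa, -0.68 for H2-Ab1, -0.23 for H2-Oa and -0.47 for Cd74, the highest-ratio feature gave -0.32 for H2-Aa, and leaving out an array gave H2-DMa -0.39 to 0.31, with 0.22, 0.31, 0.14 and 0.04 on the turned side. As labelled it gave -1.47 for H2-Eb1, 1.99 for H2-DMa, 2.94 for Ctss and 1.88 for Cd83. Quantile normalization gives the IL1-beta and control arrays 1 distribution of values. The cause of these turns was not tested, beyond the sign that the labels set.

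Over all genes, 8203 to 13231 passed against the pool (12047 in the report), 5 to 37 between the sexes under IL1-beta (25), 364 to 6765 on the control arrays (3284) and 0 to 2189 for the difference of the contrasts (32).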
